A study of Homo sapiens with 6 samples.

Results

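The expression of 9 direct targets of the tumour suppressor p53 was examined in A549, a line of human lung adenocarcinoma cells with wild-type p53. The genes are CDKN1A, MDM2, GDF15, TP53I3, SESN1, BTG2, ZMAT3, DDB2 and FDXR, and each was read by all probes annotated with its symbol, every probe taken separately. By this rule 12 of 47231 probes on the array belonged to 7 of the 9 genes, and BTG2 and FDXR were not analysed here because the annotation used names no probe for them. Of the 12 probes, 10 met the detection filter, a detection p-value under 0.05 on at least 3 of the 6 arrays, and these 10 represented all 7 genes. One group of cells had received the plasmid pcDNA-NME2-MYC for expression of NME2 (NM23-H2) with a MYC tag. NME2 is a DNA-binding protein with nucleoside diphosphate kinase activity. The control group had received pcDNA-MYC. RNA was taken 48 h after transfection from 3 replicates per group, which the submitters call biological, and read on Illumina HT-12 v4 bead arrays in 1 colour. Whether cells that took up no plasmid were removed is not given in the sources used here. The comparison asks whether the p53 targets differ between the 2 groups.

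Each array detected between 19043 and 20726 probes, and arrays correlated at 0.990 to 0.993 within groups and at 0.988 to 0.991 between groups across detected probes, which are not independent replicates. Of 9 epithelial and A549 marker genes, 7 were detected on all arrays, KRT8, KRT19, EPCAM and CDH1 among them. KRT18 and AKR1C1 did not meet the filter. Of 12 markers of other cell types 3 were detected on all arrays, and 4 met the filter, CD14, COL1A1, COL1A2 and ALB. CDKN2A, which A549 cells are known to have lost, met the filter with 0 of its 3 probes. At the NME2 locus 1 of the 3 detected NME2 probes was higher in the arrays labelled NME2-induced by a log2 fold change of 1.04 (adjusted p by limma = 0.0165). The others were at -0.59, with all NME2-induced values below the control ones, and at 0.26, with overlapping groups (adjusted p by limma = 0.0743 and 0.567), while both probes of the NME1-NME2 readthrough transcript were lower, at -1.99 and -1.89 (adjusted p by limma = 5.03e-04 and 0.00638). The arrays do not settle the NME2 level, and the group names below are those of the labels.

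p53 is a transcription factor that is kept scarce in unstressed cells and is stabilised by DNA damage, ribosomal stress and oncogene activity. It binds DNA as a tetramer, at an element made of a pair of decameric half-sites, and raises the transcription of genes for cell cycle arrest, DNA repair, metabolism and cell death. One of these genes is MDM2, whose product marks p53 for degradation and so closes a negative feedback loop. In cells with wild-type p53, several of these targets are used together as a readout of p53 activity.

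The response element is shown for the measured genes that carry it close to an annotated start, since it is the feature by which these targets are grouped. RefSeq promoter windows (GRCh38.p14), from 250 bases before to 50 bases after a start, were found for all 9 genes, 17 windows in total. They were searched for a pair of p53 half-sites of 10 bases each, with a spacer of 0 or 1 base and up to 3 mismatches in the pair. The invariant C and G of each half-site were required, and the element reads alike on both strands. A pair was found for 5 genes, MDM2, GDF15, SESN1, DDB2 and FDXR. By window, 6 of the 17 held a pair, with overlapping MDM2 windows sharing the same one. Among all 35116 windows, 2.38% held one, and 0.0199% held one with 0 mismatches. In the sequences below, capitals mark the half-sites.
DDB2 (chr11:47214975-47215003, + strand, 0 mismatches, spacer of 1 base): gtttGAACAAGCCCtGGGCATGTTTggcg
MDM2 (chr12:68808919-68808946, + strand, 2 mismatches): agctGGTCAAGTTCAGACACGTTCcgaa
SESN1 (chr6:109009014-109009041, - strand, 3 mismatches): gtctGGACAAGTCTCCACAAGTCAgaaa
GDF15 (chr19:18386182-18386207, + strand, 3 mismatches): gcacAGCCATGCCCGGGCAAGAACtc

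The pair in DDB2 lies from base 6 to base 26 relative to an annotated transcription start, and that in GDF15 from base 29 to base 48. In MDM2 it runs from base -94 to base -75 relative to an annotated start, and in SESN1 from base -49 to base -30. A match of this kind describes the letters of the window, and the 4 genes without a match in these windows may carry elements elsewhere, which were not searched.

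None of the 10 detected probes of p53 targets passed the threshold of 0.05 after Benjamini-Hochberg adjustment over all 19394 detected probes by limma. Adjusted p-values lay between 0.209 and 0.937. Over all detected probes, 0.0928% passed as higher and 0.144% as lower, shares at which fewer than 1 of 10 probes would pass. At an unadjusted p under 0.05, 0 member probes were higher, where the share over all probes was 6.28%, and 1 was lower, where it was 7.32%. The latter, a dim probe of CDKN1A, met the filter only through the control arrays, and with detection required on all 6 arrays 0 of 8 member probes were lower, beside 8.17% of all probes. The groups did not overlap for 2 member probes that were higher and 2 that were lower, beside 10.1% and 10.8% of all detected probes. The median log2 fold change of the 10 probes was -0.08, against -0.00287 over all detected probes, and 7 of the 10 lay below 0, as did 50.6% of all. The median of the 10 probes was -0.0093 without NME2-induced replicate 3 and -0.032 without control replicate 3, so its size rested on these arrays.

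**Figure D1:**
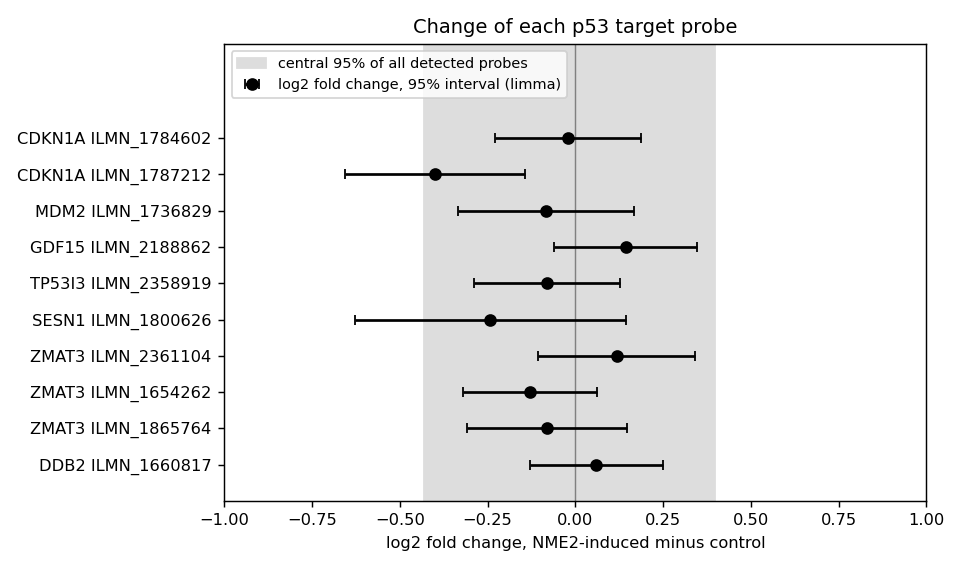
Log2 fold change (NME2-induced minus control, horizontal axis) of the 10 detected probes of p53 target genes, with 95% intervals from limma (n = 3 arrays per group) and, in grey, the central 95% of all detected probes (-0.43 to 0.40). All 10 values lie inside the grey range, and 9 of the 10 intervals hold 0. The remaining interval is that of the dim CDKN1A probe, which met the detection filter only through the control arrays.

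The size of change that these data leave possible was small for most of the genes. For 8 of the 10 probes the 95% interval lay inside a 1.5-fold change in either direction. Of the 8 probes that were detected on all 6 arrays, 7 did so, and the exception was SESN1, whose interval reached a 1.55-fold change. The dimmest probes, of CDKN1A and MDM2, had signals near 16, the offset added before taking log2, so their log2 fold changes understate the change in signal. This MDM2 probe is among the 8 inside the limit, and its interval therefore does not bound the change of MDM2 transcript.

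**Figure D2:**
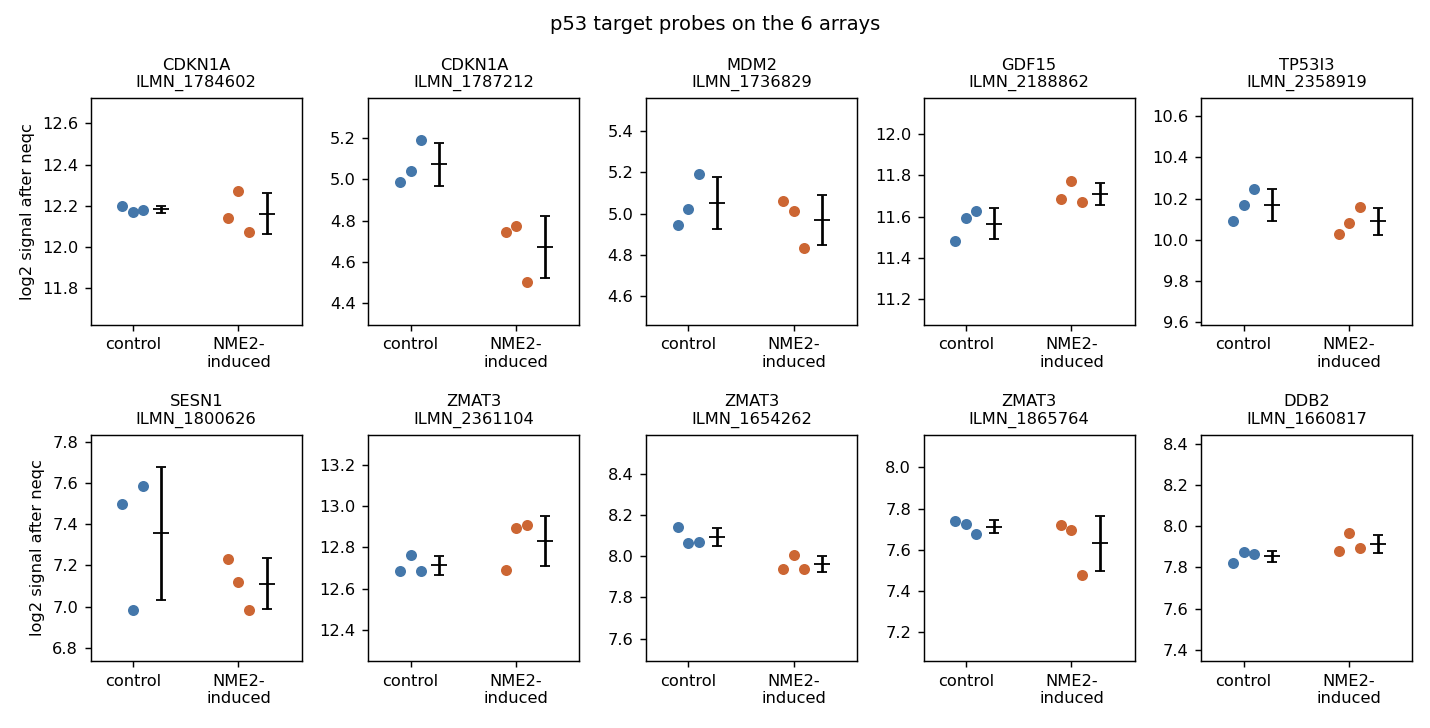
Log2 signal after background correction and normalization (vertical axis, spanning 1.1 log2 units in each panel) of the 10 detected probes on the 3 control and 3 NME2-induced arrays, in order of replicate number, with the mean and SD of each group as a bar. The groups overlap in 6 panels and are apart for CDKN1A ILMN_1787212, GDF15, ZMAT3 ILMN_1654262 and DDB2.

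CDKN1A encodes p21, the inhibitor of cyclin-dependent kinases through which p53 arrests the cell cycle. The bright CDKN1A probe, ILMN_1784602, had deposited signals of 4693, 4586 and 4629 in control replicates 1, 2 and 3. Its signals were 4495, 4930 and 4298 in the arrays labelled NME2-induced. The control values lay within the range of the NME2-induced ones. On the log2 scale the probe was at 12.18 ± 0.02 (SD, n = 3) in control and 12.16 ± 0.10 (SD, n = 3) in NME2-induced cells, a log2 fold change of -0.02 (limma, SE 0.09, adjusted p = 0.937). The 95% interval from 0.853-fold to 1.14-fold holds no change.

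A second CDKN1A probe, ILMN_1787212, was much dimmer. Its signals were 15.7, 17.0 and 20.7 in control cells and 9.99, 10.7 and 3.28 in the arrays labelled NME2-induced, so the groups did not overlap. It was detected on 3 control arrays and on 0 NME2-induced arrays, so it met the detection filter only through the group in which it was higher, and its difference is given as a description. The log2 fold change was -0.40 (limma, SE 0.11, adjusted p = 0.209). With the undetected arrays held at no less than the lowest detected level, the NME2-induced mean was 1.17-fold lower. This value compares means and carries no interval. These signals are close to background, and the bright probe of the same gene did not show this difference. The 2 probes are annotated with different transcripts of CDKN1A. The 95% intervals of the 2 CDKN1A probes overlapped. That of the dim probe left out 0, which is not read as a test result, since this probe met the filter only through the control arrays.

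MDM2 encodes the ubiquitin ligase that limits p53, and its expression is the feedback arm of the pathway. Its detected probe, ILMN_1736829, had signals of 14.7, 16.6 and 20.7 in control cells and of 17.5, 16.3 and 12.1 in NME2-induced cells, with overlapping groups. It was detected on 3 control arrays and 2 arrays labelled NME2-induced. The log2 fold change was -0.08 (limma, SE 0.11, adjusted p = 0.771), with a 95% interval from -0.34 to 0.17. A second MDM2 probe, ILMN_1814208, was detected on 0 arrays, with signals from -15.1 to 8.39. Both probes were at or near background, where a change of MDM2 transcript may not be measurable.

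GDF15 encodes a secreted cytokine of the TGF-beta superfamily that p53 and other stress pathways induce. The signals of its probe, ILMN_2188862, were 2842, 3071 and 3143 in control cells. They were 3273, 3480 and 3247 in NME2-induced cells, each above every control value. The means were 11.57 ± 0.08 and 11.71 ± 0.05 on the log2 scale (SD, n = 3 each), a 1.10-fold difference. GDF15 thus had the highest log2 fold change of the members, 0.14 (limma, SE 0.09, adjusted p = 0.514), and the 95% interval from 0.958-fold to 1.27-fold holds no change.

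TP53I3, also called PIG3, encodes a quinone oxidoreductase linked to the generation of reactive oxygen species in p53-dependent death. Its probe ILMN_2358919 had signals of 1076, 1134 and 1200 in control cells and of 1028, 1066 and 1127 in NME2-induced cells. The groups overlapped, and the log2 fold change was -0.08 (limma, SE 0.09, adjusted p = 0.727). A second probe, ILMN_1651967, is annotated with a different transcript of TP53I3. It was detected on 0 arrays, with signals between 1.87 and 6.71 and means of 4.24 ± 2.15 and 4.14 ± 2.02 (SD, n = 3 each) in the 2 groups.

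SESN1 encodes sestrin 1, which restrains mTORC1 and takes part in the defence against oxidants. Its probe, ILMN_1800626, varied most among the members. Signals were 164.6, 110.9 and 176.0 in control replicates 1, 2 and 3 and 134.6, 123.2 and 110.9 in the arrays labelled NME2-induced, so that control replicate 2 lay with the low NME2-induced values and the other control arrays above all of them. The log2 fold change was -0.24 (limma, SE 0.17, adjusted p = 0.559). It rested on control replicate 2 and control replicate 3 in opposite ways, being -0.43 without the first (adjusted p by limma = 0.302) and -0.13 without the second (adjusted p by limma = 0.823).

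DDB2 encodes the damage-recognition subunit of the UV-damaged DNA-binding complex, which starts nucleotide excision repair in chromatin. Its probe, ILMN_1660817, had signals of 210.6, 218.6 and 217.0 in control cells and of 219.9, 233.9 and 221.9 in NME2-induced cells. Every NME2-induced value was above every control value. The log2 fold change was 0.06 (limma, SE 0.08, adjusted p = 0.785), with a 95% interval from 0.914-fold to 1.19-fold.

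ZMAT3, also called WIG1, encodes a zinc finger protein that binds RNA and acts on splicing and mRNA stability. It is the member with the most probes, 3, and these did not share a direction. The bright probe ILMN_2361104 had signals of 6576, 6932 and 6576 in control cells and of 6588, 7594 and 7661 in NME2-induced cells, a log2 fold change of 0.12 (limma, SE 0.10, adjusted p = 0.624). For ILMN_1654262 the signals were 266.6, 251.7 and 252.8 in control cells. They were 229.4, 241.6 and 229.7 in NME2-induced cells, all of them lower, and the log2 fold change was -0.13 (limma, SE 0.08, adjusted p = 0.529). The signals of ILMN_1865764 lay between 188.6 and 197.8 in control cells and between 162.6 and 195.3 in NME2-induced cells, a log2 fold change of -0.08 (limma, SE 0.10, adjusted p = 0.756). The 95% intervals of all 3 probes overlapped, and the largest difference between any pair of them was 0.25 on the log2 scale.

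To set the targets beside the rest of the pathway, 6 further lists with 131 genes were examined, with 167 detected probes from 117 of them. Over these 167 probes, 0 were higher and 0 were lower past limma's adjusted threshold. At an unadjusted p under 0.05, 10 were higher and 16 lower, or 15.6% of the probes, against 13.6% of all detected probes. The median log2 fold change was -0.02 over these probes.

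**Figure D3:**
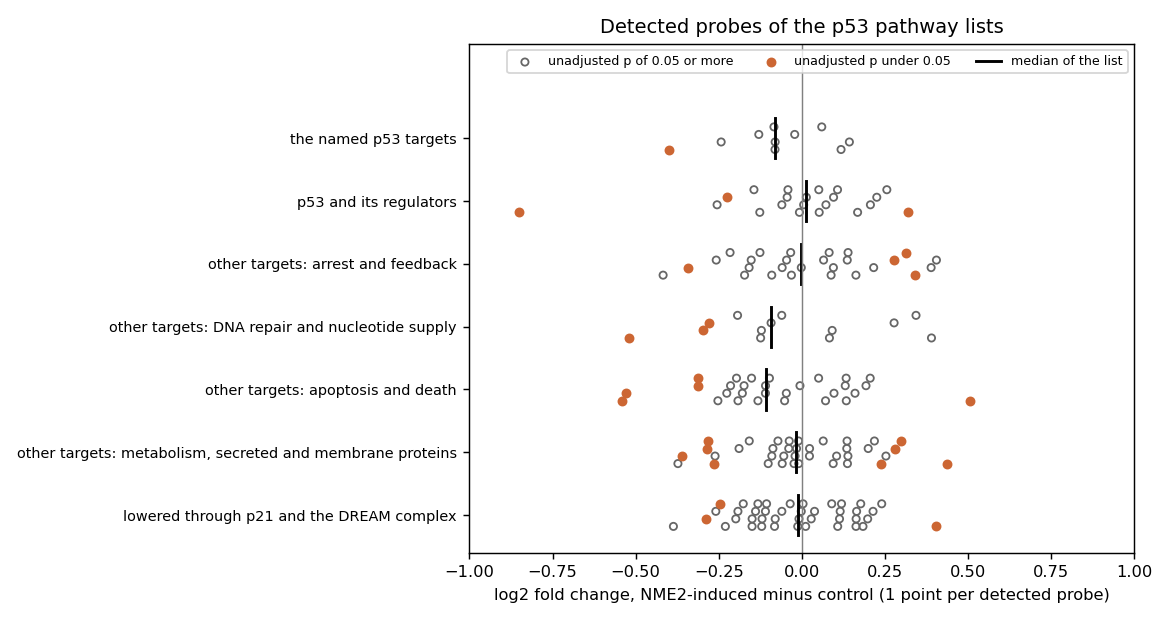
Log2 fold change (NME2-induced minus control, horizontal axis) of the detected probes of the named p53 targets and of 6 pathway lists, 1 point per probe, with the median of each list as a bar and probes at an unadjusted limma p under 0.05 filled. The list medians lie between -0.11 and 0.01, and no point passes the adjusted threshold.

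In the list of pathway regulators, 15 of 22 genes were detected, with 21 probes and a median of 0.01. The MDM4 probe, for the partner of MDM2 that blocks p53's activation domain, was detected on 0 arrays. PPM1D, a phosphatase that switches off p53 signalling and is itself a p53 target, was at -0.14 (limma, SE 0.10, adjusted p = 0.551). HIPK2, a kinase that phosphorylates p53, was at -0.85 (limma, SE 0.20, adjusted p = 0.173), by 1 probe, and -0.01 by a second. The acetyltransferase KAT5 was at 0.32 by 1 probe and 0.26 by a second, both dim (control log2 means of 5.63 and 5.39). EP300, a coactivator of p53, was at -0.23. RPL11, a ribosomal protein that binds MDM2, was at 0.21 and by a second probe at 0.07.

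In the list of arrest and feedback targets, 19 of 20 genes were detected with 27 probes and a median of -0.00166. At an unadjusted p under 0.05, 3 probes were higher and 1 was lower, beside 6.28% and 7.32% of all detected probes. E2F7, a transcriptional repressor of cell cycle genes, was at -0.34 (limma, SE 0.11, adjusted p = 0.252). GADD45A, a stress sensor of the cell cycle and DNA repair, was at 0.34 (limma, SE 0.12, adjusted p = 0.281) and by a second probe at 0.22. The stress-induced transcription factor ATF3 was at 0.28. The nuclease AEN was at 0.31 and by a second, brighter probe at 0.14.

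DNA repair and nucleotide supply targets had a median of -0.09 over 13 probes of 9 genes. At an unadjusted p under 0.05, 0 were higher and 3 lower, beside 6.28% and 7.32% of all detected probes. The 3 lower probes came from 2 genes, ASCC3 and RRM2B. ASCC3, a helicase of alkylation repair, was at -0.52 (limma, SE 0.10, adjusted p = 0.122) by 1 probe, and its other probes were at -0.28 and 0.08. RRM2B, the p53-inducible subunit of ribonucleotide reductase, was at -0.30 and -0.12 by its 2 detected probes. The translesion polymerase POLH was at 0.39 (limma, SE 0.18, adjusted p = 0.403) and the ligase LIG1 at 0.28. The POLH probe was near background, with log2 means of 4.72 in control and 5.11 in NME2-induced cells.

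Apoptosis and death targets had a median of -0.11 over 29 probes of 19 genes. At an unadjusted p under 0.05, 1 probe was higher and 4 were lower, beside 6.28% and 7.32% of all detected probes. CASP1, the inflammatory caspase, was at 0.51 (limma, SE 0.11, adjusted p = 0.138) and by a second probe at 0.16. CASP6, an effector caspase, was at -0.54 (limma, SE 0.14, adjusted p = 0.191), and its other probes were at -0.19 and 0.05. The CASP6 probe at -0.54 was the dimmest of them, with a control log2 mean of 5.79. TNFAIP8, a regulator of apoptosis, and the TRAIL receptor TNFRSF10B were at -0.31 and -0.31 by the probes with the smallest p-value. The other TNFRSF10B probes were at -0.097 and -0.11. The former was the brightest, with a control log2 mean of 11.01 against 6.64 for the probe at -0.31. Where genes of this list had more than 1 probe, these did not always share a direction, as CASP6 shows.

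Targets in metabolism, secretion and the membrane had a median of -0.02 over 37 probes of 27 genes. At an unadjusted p under 0.05, 4 probes were higher and 4 lower, beside 6.28% and 7.32% of all detected probes. TRIM22, which interferons also induce, was at 0.44 (limma, SE 0.09, adjusted p = 0.134). SCO2, an assembly factor of cytochrome c oxidase, was at 0.30. KITLG, the ligand of the receptor KIT, was at -0.36 and by a second probe at -0.37. The matrix protein THBS1 was at -0.28.

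Genes that p53 lowers through p21 and the DREAM repressor complex had a median of -0.01 over 41 probes of 29 genes. At an unadjusted p under 0.05, 1 probe was higher and 2 were lower, beside 6.28% and 7.32% of all detected probes. BIRC5, or survivin, was at 0.40 (limma, SE 0.11, adjusted p = 0.212) by 1 probe and at -0.00859 by a second. The first BIRC5 probe was dim, with a control log2 mean of 5.96 against 9.52 for the second. The mitotic kinase NEK2 was at -0.29 and by a second probe at -0.23. Cyclin CCNB2 was at -0.24 and the kinase AURKB at 0.20.

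The genes whose pattern over the 6 arrays was most like that of the bright CDKN1A probe were VPS13A, TPM1, SERINC1, FEN1 and CDC6, with Pearson correlations from 0.976 to 0.993. They were taken from 14912 detected probes with a single symbol, of which 115 had a correlation above 0.9. With 6 arrays that share their processing, these values are a description. The log2 fold changes of the 5 genes lay between -0.09 and -0.00480, and none passed limma's adjusted threshold.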

How the data were processed

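Each deposited value is a linear-scale intensity with a deposited detection p-value, exported by the authors from BeadStudio (version not given in the sources used here). The 2 deposited tables were equal in all 6 columns. The 6 arrays shared the minimum of -44.94 and the maximum, and 26.6% to 26.8% of signals were at or below 0, so the authors' values appear already background-subtracted and quantile-normalized, although 1 table is called not normalized.

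In limma 3.58.1 (R 4.3.3), neqc corrected the background from the detection p-values, added an offset of 16 and quantile-normalized log2 signals. Probes detected (p under 0.05) on at least 3 arrays were fitted with lmFit and eBayes, 2-sided, and adjusted by Benjamini-Hochberg over all 19394. Fold changes are NME2-induced minus control, and SE is the moderated standard error. Precision is limited by 3 arrays per group. For a probe detected on no array of 1 group, the other group's mean was set against the higher of its own value and the lowest detected level of each array. Symbols are those of the platform annotation, and the gene identifiers of all 7 measured genes matched the RefSeq table. The fit was tested on simulated data. Slides are not named in the sources used here. The alternatives changed normalization, background correction, offset, filter, variance model, block, arrays, test and the summary per gene.

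The members and lists were chosen with earlier results of these data known. Named are all member probes, PPM1D and MDM4, up to 4 genes with the smallest p per list, and the 5 genes most like CDKN1A.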

Additional observations from a re-analysis of the deposited data

How the results depend on the processing

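No member probe passed the adjusted threshold under any of the 17 alternatives tried, in which the lowest adjusted p was 0.195; 160 of 162 probe values kept their direction. The exceptions were the bright CDKN1A probe, which ranged from -0.076 to 0.022 with 1 array left out, the latter without NME2-induced replicate 3 (CDKN1A was at -0.21, adjusted p = 0.327 by limma, by the mean of its 2 detected probes), and ZMAT3, at -0.031 by the mean of its 3 probes. At an unadjusted p under 0.05, eBayes with trend and robust gave 1 member probe higher and 0 lower (7.61% and 8.43% of all probes), the filter for detection on all 6 arrays 0 lower (8.17% of all), since it removes the dim CDKN1A probe, and the methods' t-test 2 lower (7.05% of all); with 1 array left out, 1 to 2 were lower (5.5% to 7.46% of all), the second being SESN1 without control replicate 2. Over all probes, the counts of 18 higher and 28 lower became 121 and 157 with normexp over the probes alone, 104 and 131 with an offset of 50, 49 and 67 with the stricter filter, 212 and 264 with trend and robust, and 4 and 2 with the methods' t-test after Benjamini-Hochberg adjustment. Without a filter 17 were lower. With 1 array left out, 2 to 4 were higher and 1 to 2 lower. The cause was not tested. With the replicate block there were 2 higher and 1 lower. Same-numbered arrays deviated with correlations from -0.02 to 0.02, and not every array correlated best with its own number. These correlations show no sign of pairing by number, but with 3 arrays per group they cannot exclude it. The dim CDKN1A and MDM2 probes lie near background, which limits what they can show.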
